A study of Homo sapiens with 22 samples.

Results

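The genes described here encode the neuronal cytoskeleton and its regulators: MAPT (tau), MAP2 and MAP1B, which bind microtubules, DCX (doublecortin), TUBB3 (class III beta tubulin), STMN2 (stathmin 2), the neuronal intermediate filament genes NEFL, NEFM and INA, and GAP43, a growth cone protein. They were taken by name, and every probeset annotated to 1 of these 10 genes and to no other gene was used, which gave 26 of the 54675 probesets of the array. The table of genes held 19775 genes, each read at its brightest probeset. Brightest means here the highest mean log2 signal over all arrays, also those of lines without the RNA.

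Axons and dendrites are kept in shape by bundled microtubules and by neurofilaments. Tau, MAP2 and MAP1B bind along microtubules and stabilise them, doublecortin does so in migrating young neurons, and stathmin 2 binds free tubulin dimers and acts in growing axons. Neurofilaments are copolymers of light, medium and heavy chains, in which alpha-internexin, the product of INA, also takes part, and sympathetic neuroblasts, the cells from which neuroblastoma derives, switch such genes on as they differentiate.

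Gene expression was measured in 11 established neuroblastoma cell lines held in hypoxia (1% O2) or in normoxia (20% O2) for 18 hours, to find the genes that hypoxia modulates. There was 1 Affymetrix array for each line and condition, 22 in all. The lines were GI-LI-N, ACN, SHEP-2, SK-N-BE2(C), IMR-32, SK-N-F1, LAN-1, SK-N-SH, GI-ME-N and SHEP21N in 2 states, not over-expressing MYCN (with 50 ng/mL tetracycline, which holds its MYCN transgene off) and over-expressing MYCN (no tetracycline listed). The 3 SHEP lines are related and came from a laboratory, the other 8 from a cell line collection, so that lineage and provider cannot be told apart. No line had a second array in the same condition, so the error of a hypoxia effect below is the spread of that effect over lines. Signals are given as multiples of the array median, on a linear scale, and a signal of at least 5 times the array median in both conditions was taken as clearly present. Less RNA per cell and fewer cells with the RNA cannot be told apart in such bulk samples.

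Array medians lay between 69.4 and 133.6 signal units. The arrays of both SHEP21N states began at 3.3 units, while the dimmest probeset of any other array was at 0.80 or less. The normoxic array labelled SHEP21N over-expressing MYCN stood apart, with a 3' to 5' signal ratio of 67.3 for GAPDH and of 94.0 for ACTB (medians of all arrays 1.12 and 1.61), a ratio that is near 1 in intact RNA. The normoxic array of SHEP21N not over-expressing MYCN had an ACTB ratio of 5.05 and a GAPDH ratio of 1.30. The array labelled over-expressing also went against its label: the MYCN probeset 209756_s_at read 8.99 times the array median in hypoxia and 0.13 in normoxia there, against 0.27 in hypoxia and 0.31 in normoxia in SHEP21N not over-expressing MYCN. Arrays of SK-N-SH, IMR-32 and GI-LI-N correlated with each other (r between 0.89 and 0.91 over all probesets) about as closely as the 2 arrays of GI-LI-N (0.90) or of IMR-32 (0.90), and arrays of other lines, the SHEP lines among themselves left aside, at 0.70 to 0.87. SK-N-SH, usually described as a line without MYCN amplification, had MYCN signals (209757_s_at) of 489.9 in hypoxia and 421.0 in normoxia, in the range of IMR-32 (456.0 and 421.1), so the name SK-N-SH stands here for the array labels only. Several results below that rest on these arrays are also given without them or with the 3 look-alike lines averaged.

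The levels of these genes differed far more between cell lines than between oxygen conditions. In the lines GI-LI-N, SK-N-BE2(C), IMR-32, SK-N-F1, LAN-1 and SK-N-SH all 10 genes were clearly present in both conditions, each at its brightest probeset. GI-ME-N had 4 of them (MAP2, MAP1B, TUBB3 and GAP43), ACN and both SHEP21N states had 3 (MAP1B, TUBB3 and NEFL), and SHEP-2 had 2 (MAP1B and TUBB3). The median over the 10 genes of the SD between line means was 3.87 on the log2 scale, against 0.93 over all 19775 genes and 0.84 over the 12519 genes with a mean signal of at least 100 units. A median of 98.0% of the variance of the 10 genes over the 22 arrays lay between lines, against 83.0% over all genes and 91.0% over those 12519 genes. The list was chosen with such patterns known, and these values are a description of it.

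**Figure D1:**
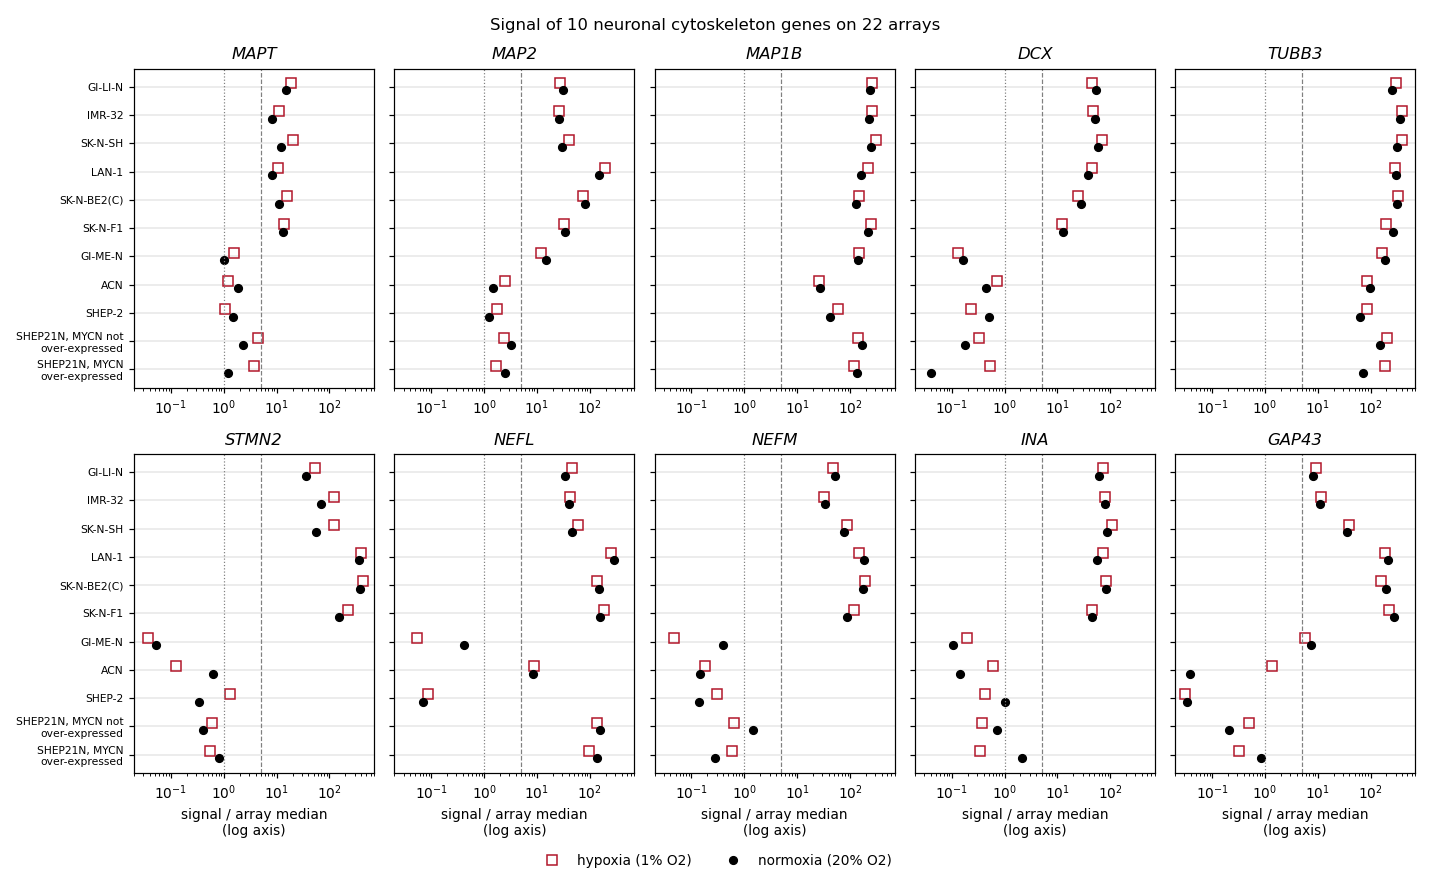
Signal of each gene at its brightest probeset in each cell line (rows), as a multiple of the array median on a log axis; red squares are hypoxia, black circles normoxia, 1 array each, the dotted line is 1 and the dashed line 5 times the array median. MAP1B and TUBB3 stayed above 26 in every line, while DCX, STMN2, NEFM and INA were above 12 in 6 lines and below 2.2 in the other 5.

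Among the microtubule-binding proteins, MAPT (chr17:45894554-46028334; positions here are those of GRCh38.p14) was read brightest by 203928_x_at. Its signal was 20.5 in hypoxia and 11.9 in normoxia in SK-N-SH, 18.9 in hypoxia and 15.0 in normoxia in GI-LI-N, 15.8 and 11.0 in SK-N-BE2(C), 13.6 and 13.3 in SK-N-F1, 11.3 and 8.28 in IMR-32 and 10.8 and 8.33 in LAN-1. It was lower on every array of the other lines, with 4.36 in hypoxia and 2.33 in normoxia in SHEP21N not over-expressing MYCN, 3.78 and 1.19 in SHEP21N labelled over-expressing MYCN, 1.57 and 0.99 in GI-ME-N, 1.18 and 1.83 in ACN and 1.05 and 1.48 in SHEP-2. The first 6 lines did not overlap the other 5 in either condition, and the widest step in the order of line means, 2.98-fold, fell between LAN-1 and SHEP21N not over-expressing MYCN. Of the 10 neighbouring pairs in that order, 9 differed by no more than the larger of their own differences between conditions; for the other genes this held for 10 pairs in TUBB3, 8 in MAP1B, 6 in MAP2, DCX, STMN2, NEFL and INA and 5 in NEFM and GAP43.

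MAP2 (chr2:209424047-209734112), which is found mainly in dendrites and cell bodies, ran differently. LAN-1 was highest with 191.4 in hypoxia and 149.8 in normoxia, followed by SK-N-BE2(C) with 76.1 and 81.3. The other 4 of the 6 lines lay between 26.2 and 40.4. GI-ME-N, in which MAPT was near the array median, still had MAP2 at 12.0 in hypoxia and 15.1 in normoxia, while ACN and the SHEP lines stayed at 1.26 to 3.20. The second MAP2 probeset, 210015_s_at, had only 1.07 in hypoxia and 2.18 in normoxia in GI-ME-N. It was clearly present in SK-N-BE2(C) and LAN-1 alone. MAP1B (chr5:72107475-72209565), an early microtubule-associated protein of extending axons, was present in every line, from 26.2 in hypoxia and 27.5 in normoxia in ACN to 305.7 and 251.9 in SK-N-SH.

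DCX (chrX:111293779-111412192) was present in 6 lines and near absent in 5. SK-N-SH had 69.7 in hypoxia and 58.1 in normoxia, IMR-32 48.0 and 52.5, LAN-1 45.6 and 38.8, GI-LI-N 44.9 and 52.8, SK-N-BE2(C) 24.5 and 27.7 and SK-N-F1 12.1 and 12.7. No array of ACN, GI-ME-N or the SHEP lines passed 0.73. The second DCX probeset, 204851_s_at, was clearly present in the same 6 lines but in another order. There IMR-32 was highest, with 108.0 in hypoxia and 114.9 in normoxia, SK-N-SH had 88.9 and 77.1, SK-N-BE2(C) 48.7 and 47.8 and LAN-1 30.4 and 30.7. TUBB3 (chr16:89921925-89936097), the tubulin used as a marker of neurons, varied least, with 62.8 in normoxic SHEP-2 as the lowest and 390.0 in hypoxic SK-N-SH as the highest signal. Its 2 probesets and the brightest one of MAPT carry the suffix of Affymetrix probesets that may bind related transcripts, and tubulin genes are near-identical to each other, so that a level of TUBB3 may include other tubulins.

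STMN2 (chr8:79611117-79666158) had the widest range of the 10 genes, 9410-fold between the highest and the lowest line mean. Its signal was 432.4 in hypoxia and 386.9 in normoxia in SK-N-BE2(C), 401.1 in hypoxia and 358.5 in normoxia in LAN-1, 225.1 and 148.7 in SK-N-F1, 123.5 and 54.7 in SK-N-SH, 121.9 and 69.6 in IMR-32 and 52.7 and 35.6 in GI-LI-N. The other 5 lines had at most 1.31 in hypoxia and at most 0.79 in normoxia, and signals this far under the array median were unsteady between the arrays of 1 line, so that such ranges depend on noise at their low end.

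NEFM and NEFL are neighbours on chromosome 8 (NEFM at chr8:24913761-24919093, NEFL at chr8:24950955-24956612), with 31861 bases and no protein-coding gene between them, but they were not present in the same lines. NEFM, the medium chain, had 32.0 to 196.7 in hypoxia and 33.5 to 186.7 in normoxia in the 6 lines, with SK-N-BE2(C) highest, and at most 0.65 in hypoxia and 1.44 in normoxia in the other 5. NEFL, the light chain, was also present in ACN (8.82 in hypoxia and 8.55 in normoxia), in SHEP21N not over-expressing MYCN (137.2 and 154.0) and in SHEP21N labelled over-expressing MYCN (95.3 and 135.4). Thus 6 lines had both chains, 3 had NEFL alone, none had NEFM alone and 2 had neither. In SHEP-2, a line of the same family as SHEP21N, NEFL was at 0.09 in hypoxia and 0.07 in normoxia, and GI-ME-N had 0.05 and 0.42. A second NEFL probeset, 221805_at, gave the same contrast, with 244.7 in hypoxia and 283.3 in normoxia in SHEP21N not over-expressing MYCN, against 0.43 and 1.29 in SHEP-2.

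INA (chr10:103277138-103290346) had the narrowest range among the 6 lines of the genes that were near absent in others, from 45.4 in hypoxia and 45.2 in normoxia in SK-N-F1 to 107.2 and 85.4 in SK-N-SH. The other 5 lines had at most 0.59 in hypoxia and 2.15 in normoxia. GAP43 (chr3:115623510-115721483), which is abundant in growing axon tips, split the 6 lines further. SK-N-F1 had 222.8 in hypoxia and 276.0 in normoxia, LAN-1 189.5 and 210.8 and SK-N-BE2(C) 160.5 and 195.8, whereas SK-N-SH had 39.5 and 35.3, IMR-32 11.7 and 11.0 and GI-LI-N 9.18 and 8.16. GI-ME-N followed at 5.70 and 7.56, and no array of ACN or the SHEP lines passed 1.36. The second GAP43 probeset, 216963_s_at, had 1.81 in hypoxia and 3.12 in normoxia in GI-ME-N.

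**Figure D2:**
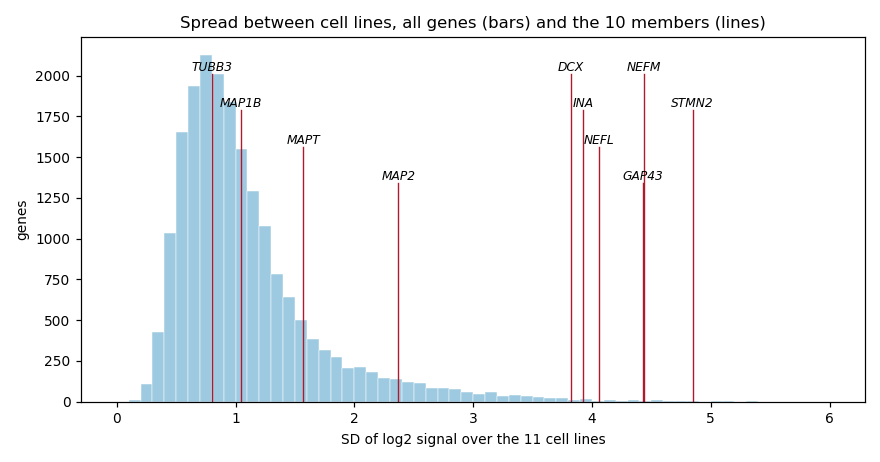
Number of genes (bars, all 19775 genes) by the SD of their log2 signal over the 11 cell lines, each line as the mean of its 2 arrays; red lines mark the 10 neuronal cytoskeleton genes. TUBB3 and MAP1B lie in the bulk of all genes, MAPT and MAP2 in its upper tail, and DCX, INA, NEFL, GAP43, NEFM and STMN2 beyond 3.8.

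Which lines lay above the widest step was compared under other scalings. For MAPT, MAP2, DCX, STMN2, NEFL, NEFM, INA and GAP43 the same lines lay above the widest step with the values as deposited and after quantile normalization, while for MAP1B and TUBB3 the step moved under both. The end of the order moved for some genes: under both scalings SK-N-BE2(C) became the highest line for INA and GI-ME-N the lowest for MAPT, the highest for MAP1B became GI-LI-N as deposited and SK-N-F1 after quantile normalization, and after quantile normalization the lowest became SHEP21N labelled over-expressing MYCN for DCX and ACN for NEFM. Line means of MAPT correlated over the 11 lines with those of NEFM (Pearson r = 0.97), INA (0.96), DCX (0.93) and STMN2 (0.93), and least with NEFL (0.69). MAP2 ran closest to GAP43 (0.95), and STMN2 to NEFM (0.98). Outside the list, the genes nearest to MAPT among 12519 genes were IGFBPL1 (0.98), SYT4, a synaptotagmin (0.98), PHOX2A, a transcription factor of noradrenergic neurons (0.97), SRRM4, a neuronal splicing factor (0.97) and KIF21A, a kinesin (0.97). The nearest gene was MAGI3 for MAP2 (0.98), NT5DC2 for MAP1B (0.98), MYCN for DCX (0.99), SMC3 for TUBB3 (0.98), KCNH8 for STMN2 (0.98), PTPMT1 for NEFL (0.95), SYT4 for NEFM (0.98), ATCAY for INA (0.99) and PXYLP1 for GAP43 (0.98). These coefficients describe 11 lines that fall into separate sets, 3 of them related and 3 alike in profile. MYCN was read at 209757_s_at, which had 0.065 in hypoxic SHEP21N labelled over-expressing MYCN, where 209756_s_at had 8.99. At 209756_s_at SK-N-F1, in which DCX was present, had 0.32 in hypoxia and 0.50 in normoxia. Within the 6 lines alone, the 5 genes nearest to MAPT had r between -0.04 and 0.53. There r was 0.92 for PXYLP1 and GAP43, 0.90 for MAGI3 and MAP2, 0.87 for NT5DC2 and MAP1B, 0.80 for MYCN and DCX, 0.77 for SMC3 and TUBB3, 0.76 for PTPMT1 and NEFL, 0.57 for KCNH8 and STMN2, 0.41 for SYT4 and NEFM and 0.12 for ATCAY and INA.

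Sums of cell type markers ran with these levels, while single markers did not all do so. Of 8 measured sympathetic neuroblast markers (PHOX2A, HAND2, GATA3, ISL1, TH, DBH, CHGA and CHGB), 6 or 7 were clearly present in each of the 6 lines, with summed signals of 512.6 to 896.3 in hypoxia and 494.6 to 776.1 in normoxia. In the other 5 lines 0 to 2 were, GATA3 and ISL1 only, with sums of 3.48 to 50.5 in hypoxia and 3.24 to 49.6 in normoxia. Of 8 substrate-adherent or mesenchymal-type markers (VIM, FN1, CD44, S100A6, COL1A1, COL1A2, PRRX1 and YAP1), 3 or 4 were present in each of the 6 lines (sums of 301.4 to 403.1 in hypoxia and 231.2 to 406.1 in normoxia) and 5 to 8 in the others (885.3 to 2203 in hypoxia and 759.9 to 2066 in normoxia). PHOX2A had 70.9 to 224.7 in hypoxia and 116.0 to 219.6 in normoxia in the 6 lines, and at most 1.46 in hypoxia and 0.89 in normoxia in ACN, GI-ME-N and the SHEP lines. TH, the first enzyme of catecholamine synthesis, was clearly present in SK-N-BE2(C) and LAN-1 alone and so did not separate these sets. Nor did CD44, with 68.2 in hypoxia and 65.4 in normoxia in SK-N-F1 and 66.7 and 79.7 in SHEP21N labelled over-expressing MYCN. VIM had 323.9 and 282.5 in SK-N-BE2(C) against 298.9 and 189.1 in that SHEP21N state. COL1A1 had 36.2 and 15.1 in LAN-1 against 0.03 and 0.41 in ACN. YAP1 did separate them, with at most 3.40 in the 6 lines and at least 16.7 in the others. Of 7 leukocyte, endothelial and epithelial markers, KRT18 alone was clearly present, in LAN-1 and the other 5 lines. The part of cell type in the levels was not tested.

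Promoter sequences were on hand for 6 of the 10 genes in RefSeq (GRCh38.p14). The 250 bases before a transcript start are shown for 2 genes that were near absent in several lines, INA (chr10:103276888-103277137) and GAP43 (chr3:115623260-115623509), and for 2 that were present in every line, MAP1B (chr5:72107225-72107474) and TUBB3 (chr16:89923092-89923341), all on the plus strand; where a gene had several starts, the window with most CpG pairs was taken. Capitals mark matches on either strand to the core of the element bound by hypoxia-inducible factors, ACGTG or GCGTG, to CACGTG, a site of MYC proteins, or to AGCACC and GGACAG, the left and right parts of the element bound by the neuronal repressor REST.
INA: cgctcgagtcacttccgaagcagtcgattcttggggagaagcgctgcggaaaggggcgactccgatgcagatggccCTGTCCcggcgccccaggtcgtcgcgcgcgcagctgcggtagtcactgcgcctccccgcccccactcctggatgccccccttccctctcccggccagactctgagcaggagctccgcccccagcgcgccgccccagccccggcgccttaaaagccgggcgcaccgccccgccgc
GAP43: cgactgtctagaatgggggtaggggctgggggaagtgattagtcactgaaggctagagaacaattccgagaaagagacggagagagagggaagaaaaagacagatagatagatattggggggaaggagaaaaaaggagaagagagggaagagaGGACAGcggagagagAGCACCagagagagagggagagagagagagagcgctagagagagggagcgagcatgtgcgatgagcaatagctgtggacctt
MAP1B: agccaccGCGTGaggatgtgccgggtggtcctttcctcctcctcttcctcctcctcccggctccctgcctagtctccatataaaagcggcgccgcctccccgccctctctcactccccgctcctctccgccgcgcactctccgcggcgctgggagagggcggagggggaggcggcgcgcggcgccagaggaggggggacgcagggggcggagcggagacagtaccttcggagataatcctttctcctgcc
TUBB3: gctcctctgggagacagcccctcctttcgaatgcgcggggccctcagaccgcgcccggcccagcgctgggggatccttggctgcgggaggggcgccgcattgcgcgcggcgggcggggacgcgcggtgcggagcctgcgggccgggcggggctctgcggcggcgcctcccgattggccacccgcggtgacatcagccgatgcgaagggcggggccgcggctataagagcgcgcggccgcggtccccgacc
INA held 1 match to GGACAG, read on the minus strand, GAP43 held 1 match to AGCACC and 1 to GGACAG, MAP1B held 1 hypoxia core and TUBB3 held none. Among 35116 promoter windows of this length, 43.2% held a hypoxia core, 6.34% CACGTG, 13% AGCACC and 17.2% GGACAG, so that each match was common. The GAP43 window held 7 CpG pairs and those of INA, MAP1B and TUBB3 30, 25 and 39, against a median of 11 over all windows. The MAP1B and TUBB3 windows were taken for their CpG pairs, so their counts cannot be set against that median. The other MAP1B window held 11 and the other TUBB3 window 9. INA and GAP43, with 1 window each, lay on either side of the median. The windows of DCX, near absent in 5 lines and not shown, held at most 3.

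The changes in hypoxia were small beside the spread between lines. No gene of the 10 passed an adjusted p of 0.05 in limma, fitted with a term for each cell line and adjusted over all genes, where 0.162% of all genes did (32 of 19775). At an unadjusted p of 0.05, MAPT alone was past the limit, where 10.7% of all genes were, and an ordinary paired test, gene by gene, called 0 of the 10 genes, also before adjustment. Of the 26 probesets, 0 passed in limma (0.0476% of all probesets did) and 0 had an unadjusted p under 0.05 (8.09% of all did). The median change of the 10 genes was 0.16 on the log2 scale, against -0.04 over all genes, and 17 of the 26 probesets averaged higher in hypoxia.

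**Figure D3:**
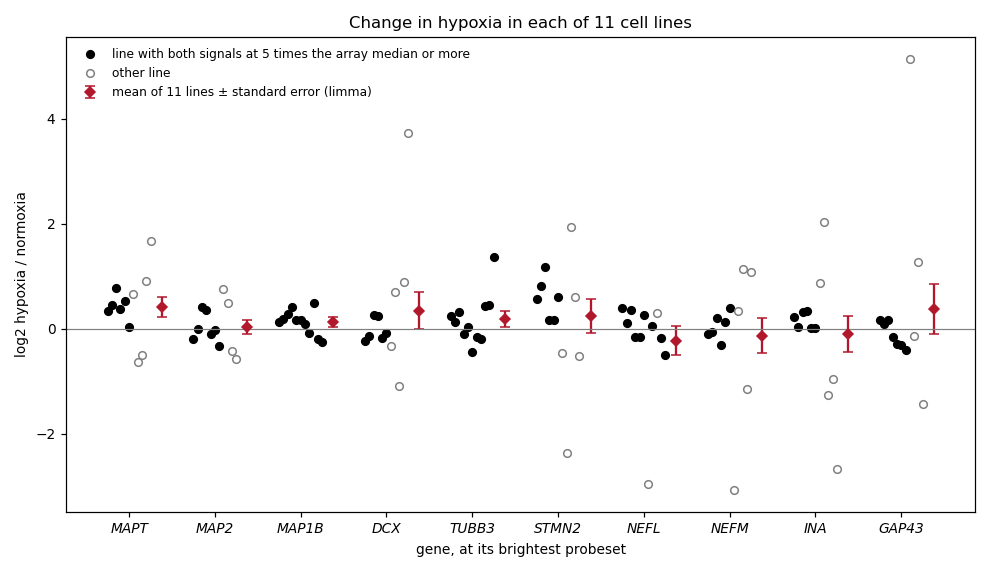
Log2 of the hypoxia over the normoxia signal of each gene in each of the 11 cell lines at its brightest probeset. Filled points are lines with both signals at 5 times the array median or more, open points are the other lines, and the red diamond with its bar is the mean of the 11 lines with its limma standard error; the filled points of every gene lie between -0.51 and 1.37, and the wide swings are open points.

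MAPT had the smallest p of the 10. It averaged 0.42 ± 0.64 on the log2 scale (SD, n = 11 lines), higher in hypoxia in 9 of 11 lines (limma, standard error 0.19, p = 0.0498, adjusted p = 0.468). In the 6 lines in which it was clearly present, all were higher in hypoxia, by 1.72-fold in SK-N-SH, 1.44-fold in SK-N-BE2(C), 1.36-fold in IMR-32, 1.30-fold in LAN-1, 1.26-fold in GI-LI-N and 1.02-fold in SK-N-F1. Each fold is that of 1 pair of arrays and has no error of its own. MAPT is among the genes of the hypoxia signature that the study derived from these arrays, so its direction here is not independent evidence. The accession listed for it there is that of 203929_s_at, a dimmer probeset than 203928_x_at. The 2 ratios above those of the 6 lines were those of SHEP21N, 3.17-fold where labelled over-expressing MYCN, with the aberrant normoxic array, and 1.87-fold where not, with the normoxic array of raised ACTB ratio. Without both SHEP21N states the mean change was 0.23 (adjusted p = 0.623).

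The 6 MAPT probesets did not move alike. Mean log2 changes were 0.42 at 203928_x_at, 0.37 at 206401_s_at, 0.11 at 203929_s_at and 0.04 at 225379_at, with SDs over the lines of 0.64, 1.14, 0.51 and 1.01. At 203929_s_at limma gave an unadjusted p of 0.519 (adjusted p = 0.891). Among lines with both signals at 5 times the array median or more, hypoxia was higher in 6 of 6 lines, 5 of 6, 4 of 5 and 4 of 4 at these probesets. The largest of these ratios stood at SK-N-SH for the first 3, with 1.72-fold, 1.87-fold and 1.76-fold. The remaining probesets, 203930_s_at (mean change 0.24) and 233117_at (0.46), were clearly present in no line. MAPT has an antisense neighbour with probesets of its own, which were not used.

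**Figure D4:**
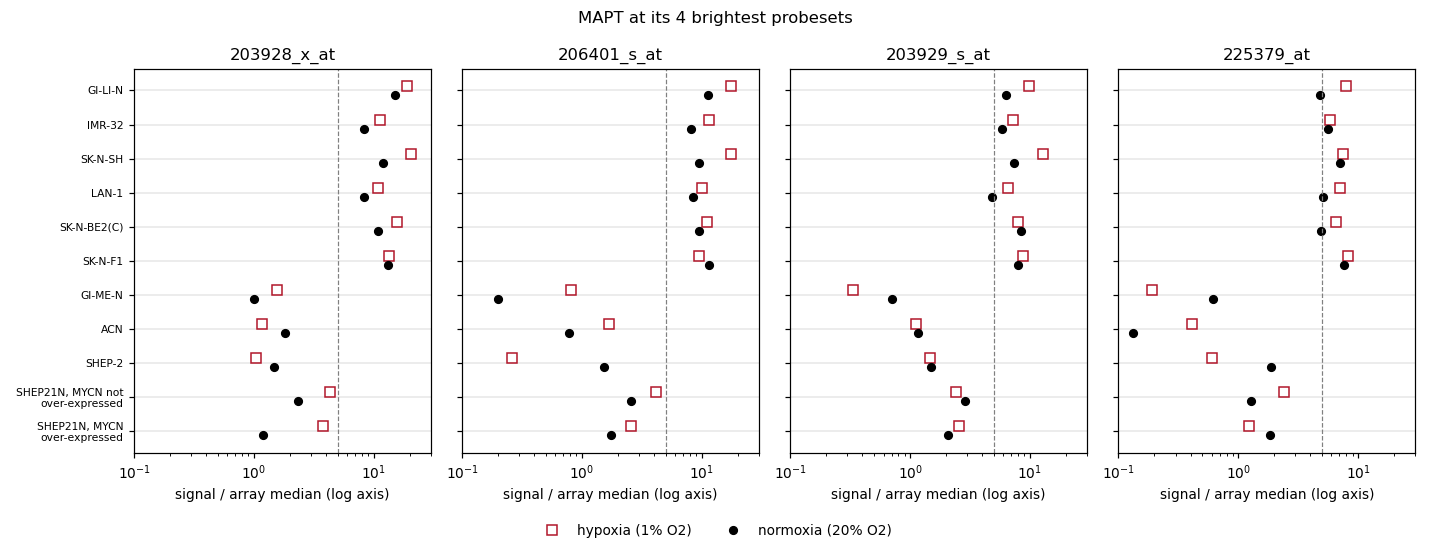
MAPT signal at its 4 brightest probesets in each cell line, as a multiple of the array median on a log axis; red squares are hypoxia, black circles normoxia, 1 array each, and the dashed line is 5 times the array median. At 203928_x_at hypoxia lies to the right of normoxia in all 6 upper lines, while the 5 lower lines stay under the dashed line at every probeset.

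For the other microtubule-binding genes the mean changes were within their spread. MAP2 averaged 0.04 ± 0.42 (SD, n = 11 lines; limma adjusted p = 0.951), higher in 5 lines, and left-out lines turned its sign. The second MAP2 probeset, 210015_s_at, averaged -0.34. MAP1B averaged 0.13 ± 0.23 (adjusted p = 0.671) and was higher in hypoxia in 8 of 11 lines, with LAN-1 at 219.1 in hypoxia and 164.8 in normoxia. DCX averaged 0.34 ± 1.24 (adjusted p = 0.777), with its highest ratio against the aberrant normoxic SHEP21N array, where hypoxia read 0.53 and normoxia 0.04, and without both SHEP21N states the mean was -0.09. In the 6 lines with DCX, 2 were higher in hypoxia and 4 lower, by ratios of 0.85 to 1.20. At the second DCX probeset, 204851_s_at, 3 of them were higher and 3 lower, by ratios of 0.78 to 1.15. TUBB3 averaged 0.19 ± 0.48 (adjusted p = 0.699) and was higher in hypoxia in 7 of 11 lines, from 0.73-fold in SK-N-F1 to 2.58-fold in SHEP21N labelled over-expressing MYCN, again against the aberrant array. Without that line the mean was 0.072, and without both SHEP21N states 0.030. At the second TUBB3 probeset, 202154_x_at, the mean over the 11 lines was 0.058.

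STMN2 was higher in hypoxia in each of the 6 lines in which it was present. The ratio was 2.26-fold in SK-N-SH, 1.75-fold in IMR-32, 1.51-fold in SK-N-F1, 1.48-fold in GI-LI-N and 1.12-fold in both SK-N-BE2(C) and LAN-1. Its second probeset, 203000_at, was also higher in 6 of 6 of these lines, by 1.05-fold to 2.29-fold. Over all 11 lines the change was 0.24 ± 1.11 (SD; limma adjusted p = 0.830), since the signals near 0 in the other lines swung both ways, from a log2 change of -2.36 in ACN to one of 1.94 in SHEP-2. The mean was 0.50 without ACN (limma, unadjusted p = 0.0472, adjusted p = 0.464) and 0.074 without SHEP-2. The 6 lines were picked by level, 3 of them resemble each other, and their count has no test.

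The neurofilament genes averaged below 0. NEFL had a mean change of -0.23 ± 0.95 (SD, n = 11 lines; limma adjusted p = 0.818), NEFM -0.13 ± 1.16 (adjusted p = 0.924) and INA -0.09 ± 1.21 (adjusted p = 0.951). GI-ME-N, in which both were near absent, gave log2 changes of -2.96 for NEFL and -3.07 for NEFM, and without that line the means were 0.05 and 0.17. Where NEFL was present, 5 of 9 lines were higher in hypoxia, with ratios of 0.70 to 1.32, whereas its other probesets were higher in 3 of 9 lines (221805_at) and 1 of 5 (221801_x_at). NEFM was higher in 3 of its 6 lines, by ratios of 0.81 to 1.31, and its second probeset, 223902_at, read at most 0.55 on every array. INA was higher in hypoxia in 6 of its 6 lines, though by 1.01-fold to 1.27-fold only. GAP43 averaged 0.37 ± 1.70 (adjusted p = 0.830), and the mean was -0.10 without ACN, where the signal was 1.35 in hypoxia and 0.04 in normoxia. Of the 7 lines that had GAP43, 4 were lower in hypoxia, namely SK-N-F1, LAN-1, SK-N-BE2(C) and GI-ME-N, by ratios of 0.75 to 0.90. The second GAP43 probeset, 216963_s_at, was clearly present in 6 lines, without GI-ME-N, and higher in hypoxia in 3 of them. There SK-N-BE2(C) was higher, with 53.9 in hypoxia and 47.8 in normoxia. Means over the 11 lines were -0.08 at 216963_s_at and -0.25 at 216967_at. Of the 6 lines that had all genes, MAPT, STMN2, INA and MAP1B were higher in hypoxia in 6 of 6 at their brightest probesets under all 3 scalings. The share of all genes higher in 6 of 6 of these lines was not computed, and 3 of the lines resemble each other. Over the array median, other probesets did not all follow, and INA had only 1 probeset. MAP1B was lower in IMR-32 at 212233_at (0.99-fold) and 214577_at (0.97-fold). MAPT was lower in SK-N-F1 at 206401_s_at (0.82-fold) and in SK-N-BE2(C) at 203929_s_at (0.93-fold). Other counts moved with the scaling: MAP2 was higher in 3 of 6 over the array median, and in 5 of 6 as deposited and after quantile normalization, DCX in 2, and in 3 under both, NEFM in 3, and in 4 as deposited and 5 after quantile normalization, and GAP43 in 3, and in 2 after quantile normalization.

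Taking each gene in each line in which it was clearly present gave 75 pairs of signals, of which 49 (65.3%) were higher in hypoxia, with a median log2 change of 0.14. Over all genes 32153 of 77476 such pairs (41.5%) were, with a median of -0.07. In SK-N-SH all 10 genes were higher in hypoxia, by 1.12-fold to 2.26-fold, in a line whose median change over all genes was 0.12, the highest of the 11 lines. Counts were 8 of 10 in IMR-32, 7 of 10 in GI-LI-N and 6 of 10 in SK-N-BE2(C), SK-N-F1 and LAN-1. In the other 5 lines 6 of 15 pairs (40.0%) were higher: 2 of 2 in SHEP-2, 1 of 4 in GI-ME-N and 1 of 3 in ACN and in each SHEP21N state. After the look-alike lines were merged, 33 of 55 pairs (60.0%) were higher, with a median of 0.045, against 39.0% over all genes. Without SHEP21N 47 of 69 (68.1%) were, against 39.2% over all genes. With the values as deposited and after quantile normalization 72.0% and 73.0% of the pairs were higher, against 46.1% and 45.9% over all genes. Pairs of 1 line share their arrays and are not replicates.

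The difference in hypoxia effect between the 3 SHEP lines and the other 8 passed the adjusted limit for 0 of the 10 genes in limma, where 0.0101% of all genes passed. INA and TUBB3 had an unadjusted p under 0.05, where 11.7% of all genes had one. For INA the mean log2 change was -1.63 ± 0.91 in the SHEP lines and 0.48 ± 0.69 in the other lines (SD; n = 3 and 8 lines), a difference of -2.11 (standard error 0.49, limma adjusted p = 0.250). All INA signals of the SHEP lines were at most 2.15 times the array median, and the highest of them was that of the aberrant normoxic array, against which hypoxia read 0.34. Without that line the SHEP mean was -1.11 and the difference -1.59 (unadjusted p = 0.0103, limma adjusted p = 0.401). Leaving out both SHEP21N states left SHEP-2 as the only SHEP line, and the difference was -1.74. The mean of the other lines included changes of 2.04 in ACN and 0.88 in GI-ME-N, in which INA signals were under 0.6. For TUBB3 it was 0.76 ± 0.53 in the SHEP lines and -0.02 ± 0.25 in the others, a difference of 0.78 (standard error 0.26, adjusted p = 0.328). TUBB3 was higher in hypoxia in 3 of 3 SHEP lines, with 85.3 in hypoxia and 62.8 in normoxia in SHEP-2, 209.2 and 152.5 in SHEP21N not over-expressing MYCN and 189.0 and 73.1 in SHEP21N labelled over-expressing MYCN, the last against the aberrant normoxic array. At its second probeset, 202154_x_at, SHEP21N not over-expressing MYCN was nearly level, with 137.4 in hypoxia and 136.4 in normoxia. There SHEP-2 had 54.1 and 40.9, and SHEP21N labelled over-expressing MYCN 188.4 and 89.4. Without SHEP21N labelled over-expressing MYCN the TUBB3 difference was 0.47 (unadjusted p = 0.0782, limma adjusted p = 0.579), so that TUBB3 no longer had an unadjusted p under 0.05. With SHEP-2 as the only SHEP line left the difference was 0.46. In the other 8 lines TUBB3 was higher in hypoxia in 4.

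Other genes of the same machinery gave no call either. Of 69 genes in 6 lists of related genes, 0 passed the adjusted limit in limma; 2 had a higher and 5 a lower mean with an unadjusted p under 0.05, which is 10.1% of them, and the shares over all genes were 0.162% adjusted and 10.7% unadjusted. The ordinary paired test passed 1, STMN1 (adjusted p = 0.0433). The median change of the 69 was 0.03, against -0.04 over all genes. Among 13 other microtubule-associated proteins DCLK1, a doublecortin-like kinase, averaged -0.51 (standard error 0.12, adjusted p = 0.156) and was lower in hypoxia in 11 of 11 lines, and CAMSAP2, which binds microtubule minus ends, averaged -0.30 (adjusted p = 0.356). MAPRE1, which tracks microtubule plus ends, averaged -0.20 and MAP4 0.19. Among 14 other stathmins and tubulins STMN1, a stathmin of dividing cells, averaged -0.36 (standard error 0.09, limma adjusted p = 0.199) and was lower in 10 of 11 lines. STMN2 averaged 0.24 at its brightest probeset but -0.07 at 203000_at, and the difference between both genes was not tested.

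Among 7 other intermediate filament genes the lamin gene LMNB1 averaged -0.59 (limma adjusted p = 0.259) and vimentin, VIM, 0.27 (adjusted p = 0.333), which was higher in 11 of 11 lines. PRPH, the filament of peripheral neurons, averaged 0.53 (adjusted p = 0.604), and the heavy neurofilament chain NEFH -0.60 (adjusted p = 0.616). Of 10 growth cone and collapsin response genes none had an unadjusted p under 0.05, and DPYSL4 came nearest with 0.46 (adjusted p = 0.532). Of 16 tau kinase and phosphatase genes MARK1, a kinase of tau, averaged -0.29 (adjusted p = 0.410), while GSK3B, another tau kinase, averaged 0.01 and CDK5 0.07. Of 9 genes of axonal motors DYNC1H1, the dynein heavy chain, averaged 0.39 (adjusted p = 0.393) and was higher in 10 of 11 lines.

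The spread between lines differed among these lists. The median SD of line means was 2.31 on the log2 scale for the growth cone and collapsin response genes, 1.31 for other intermediate filaments, 1.05 for axonal motors, 1.02 for tau kinases and phosphatase subunits, 0.99 for other microtubule-associated proteins and 0.84 for other stathmins and tubulins, against 0.93 over all genes. RTN1, a membrane protein of neuroendocrine cells, had 3.74, KIF1A, a motor of synaptic vesicle precursors, 3.65, NEFH 3.47, PRPH 3.44 and CRMP1, a collapsin response protein, 3.26. These 5 were named after their values were seen. They lay below STMN2 (4.85), NEFM (4.44), GAP43 (4.43), NEFL (4.06), INA (3.93) and DCX (3.82). They lay above MAP2 (2.37), MAPT (1.57), MAP1B (1.05) and TUBB3 (0.80). The median SD of the cell type markers was 3.38 for the sympathetic neuroblast list and 2.73 for the substrate-adherent or mesenchymal-type list. It was 1.11 for the leukocyte, endothelial and epithelial list.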

How the data were processed

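The deposited values are linear intensity values from MAS5 (its version is not given in the sources used here), which the authors' methods describe as scaled to a mean of 500 per array; detection calls were not used here. Of the 54675 probesets, 41091 named a single gene in the platform annotation. Values were put over the median of their array, with no floor, before the log2 was taken. Each of 19775 genes was read at the probeset with the highest mean of these log2 values over all arrays. Dividing by the median sets the middle of all arrays equal, so changes are relative to it. The fits, in R 4.3.3 with limma 3.58.1, held a term for each cell line (the block), since both arrays of a pair carry the same line label; adjustment was by Benjamini and Hochberg over all genes or all probesets, and the script was tested on simulated data. The SHEP lines were set against the other lines as an interaction. Tables and plots were made in Python 3.11.15 with pandas 2.3.3 and matplotlib 3.10.9.

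The genes, context lists, markers and the limit of 5 times the array median were chosen with earlier results of these data known. The genes named were the 10 members, up to 4 genes with the smallest adjusted p in each context list (GSK3B, CDK5, RTN1, KIF1A and CRMP1 were named after their values were seen), the 5 genes nearest to MAPT and the nearest gene to each other member. Other settings were quantile normalization, the unscaled values, signals under 50 set to 50, only genes with a mean signal of 100 or more, the mean of all probesets, no block, an ordinary paired test for each gene, SHEP lines averaged, both SHEP21N states left out and each line left out; the 3 look-alike lines averaged and the rescaled pair counts include choices made after seeing the data. The methods name a test of means after a selection on fold change, without stating that it was paired; the selection was not applied here. Promoter windows and gene positions came from RefSeq tables for GRCh38.p14. The number of arrays limits the precision.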

Additional observations from a re-analysis of the deposited data

Results flagged for a closer look

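Among the 8 lines other than SHEP, a single line lay far from the rest for 5 of the 10 genes examined, by Dixon's test at its 95% limit. Chance passes that limit in about 1 in 20 groups of normally distributed values. The share of all genes flagged in this way was not computed, so the count cannot be read as an excess. ACN gave the lowest log2 change of STMN2, -2.36 (0.12 times the array median in hypoxia and 0.63 in normoxia), the highest of INA, 2.04 (0.59 and 0.14), and the highest of GAP43, 5.14 (1.35 and 0.04). GI-ME-N gave the lowest of NEFL, -2.96 (0.05 and 0.42), and of NEFM, -3.07 (0.05 and 0.39). All of these signals were below 1.4 times the array median, and their part in noise at low signal was not tested.

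The hypoxia effect on INA was below 0 in 3 of 3 SHEP lines and above 0 in 8 of 8 other lines. The difference of -2.11 did not pass the limma interaction test (adjusted p = 0.250). In SK-N-F1, SK-N-BE2(C) and IMR-32 INA was nearly level, at 1.01-fold, 1.01-fold and 1.02-fold. The share of all genes with such a split of signs was not computed. The SHEP signals were 0.43 in hypoxia and 1.02 in normoxia in SHEP-2, 0.37 and 0.73 in SHEP21N not over-expressing MYCN and 0.34 and 2.15 in SHEP21N labelled over-expressing MYCN, the last against the normoxic array with the raised 3' to 5' ratios. INA signals in ACN and GI-ME-N, among the 8 other lines, were also under the array median. Without SHEP21N labelled over-expressing MYCN the difference was -1.59 (limma adjusted p = 0.401).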

How the results depend on the processing

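The counts of 0 calls among the 10 genes, the 26 probesets and the interaction stayed at 0 under every alternative run; the count of context genes was 1 by the ordinary paired test (STMN1) and 0 otherwise. The MAPT change lay between 0.23 and 0.52 (adjusted p between 0.297 and 1.00), between 0.29 and 0.52 with 1 line left out, and was 0.42 with no replicate block (adjusted p = 1.00), which changed no call. Without each line in turn the number of calls was 0 throughout. Reversed signs: with the mean of all probesets MAP2 averaged -0.15 and NEFM 0.31; with a floor of 50 NEFL averaged 0.0031; with SHEP lines averaged INA averaged 0.25; without both SHEP21N states DCX averaged -0.093 and INA 0.29. With 1 line left out MAP2 ranged from -0.037 to 0.10 (below 0 without ACN, SHEP-2 or SK-N-SH), NEFL from -0.29 to 0.048 and NEFM from -0.25 to 0.17 (above 0 without GI-ME-N), INA from -0.31 to 0.16 (above 0 without SHEP-2, 0.02, or SHEP21N labelled over-expressing MYCN, 0.16) and GAP43 from -0.10 to 0.55 (below 0 without ACN). The cause of these reversals was not tested, and none of these changes passed the test under any alternative. The interaction was not run without the block, with the ordinary paired test or with the SHEP lines averaged. Without both SHEP21N states the interaction set SHEP-2 alone against the other lines, and that run cannot speak for the SHEP lines. Signals near or under the array median limit what can be read of DCX, STMN2, NEFM, INA and GAP43 outside the lines that have them.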
